A study of Mus musculus with 15 samples.

Results

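The brainstem transcriptome of prenatal Lmx1b-/- mice was compared with that of Lmx1b+/- mice, to find the genes that differed between loss of both copies of Lmx1b and loss of 1 copy. The comparison took in the 3 libraries whose labels give the null genotype and the 3 whose labels give the heterozygous genotype, 6 of the 15 libraries of the series, and was described across all expressed genes. The 3 WT libraries of the same experiment entered only to show which of the 2 genotypes departed from WT. All 9 libraries were RNA-seq of brainstem tissue taken before birth from C57BL/6 mice, and the study's text calls the WT animals littermates and the tissue ventilatory centers. The mutant Lmx1b allele, the embryonic day, the sex, the litter and the date of each library are not given in the sources used here, and no label says that the libraries of a genotype came from separate animals. All p-values therefore measure the spread between these libraries, which may be technical in part.

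Lmx1b is a LIM-homeodomain transcription factor, a protein that binds AT-rich DNA and acts in neurons as they take on their identity. In the hindbrain it is known for its place in the development of serotonergic neurons, which make serotonin from tryptophan and modulate breathing, and in neurons of the dorsal hindbrain and spinal cord that relay sensory input. It is also known from the midbrain, where it acts beside En1 and other factors of the midbrain and isthmus.

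Total counts lay between 28833130 and 37441679 per library. Levels are given in CPM, the unit of edgeR for counts relative to the library total, after TMM scaling (a scaling by the bulk of genes), and a count of 0 allowed a level of up to 0.0676 to 0.109 CPM, which covers counting error only. The mitochondrial share of counts was 9.58% to 14.7% in Lmx1b+/-, 7.23% to 7.98% in Lmx1b-/- and 5.57% to 6.74% in WT, so the 3 genotypes did not overlap. The TMM factors were 0.836 to 0.989 in Lmx1b+/- and 1.03 to 1.05 in Lmx1b-/-. Xist, the RNA of the inactive X chromosome, was high in Lmx1b+/- 3, Lmx1b-/- 2, Lmx1b-/- 3 and WT 2, so the genotypes were not balanced for sex. In Lmx1b+/- 1, Xist stood at 36.2 CPM beside 52.1 CPM of the Y-linked gene Ddx3y, whereas the other libraries with high Ddx3y had at most 4.29 CPM of Xist. Among the libraries with high Xist, Ddx3y stood at 3.22 CPM in WT 2, 3.72 CPM in Lmx1b+/- 3 and 1.46 CPM in Lmx1b-/- 2, against 0.133 CPM in Lmx1b-/- 3. Whether any of these libraries held RNA of more than 1 animal was not tested. WT 3 stood apart in its most abundant gene, which took 4.56% of counts against 13.7% to 22.7% elsewhere.

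Lmx1b itself checked the labels. Its level was 30.5, 11.9 and 14.2 CPM in Lmx1b+/- 1 to 3, 1.45, 1.13 and 0.848 CPM in Lmx1b-/- 1 to 3, and 22.5, 16.0 and 9.73 CPM in WT 1 to 3. All 3 null libraries lay far below all others, and the heterozygous and WT libraries overlapped. The level was 16.6-fold lower in Lmx1b-/- than in Lmx1b+/- (log2 fold change, log2FC, of -4.05 with SE 0.41, edgeR adjusted p = 4.3e-05; two-sided exact permutation p = 0.1, the smallest that 3 against 3 libraries can give). Lmx1b+/- and WT differed by 0.23 on the log2 scale (exact permutation p = 0.7), so the level of Lmx1b did not tell the heterozygous libraries from WT, and the heterozygous label has no check from this gene.

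The 2 genotypes differed in a large part of the transcriptome. Of 21729 tested genes, 5544 (25.5%) were called at an adjusted p under 0.05 by edgeR's quasi-likelihood test, 2500 (11.5%) higher and 3044 (14.0%) lower in Lmx1b-/-. A change of at least 2-fold was found for 955 called genes (4.40%), 242 higher (1.11%) and 713 lower (3.28%). Most of the 2-fold lower genes were short transcripts without a gene name: 536 carried gene model or clone names, among them 126 ribosomal protein pseudogenes, 49 were ribosomal protein genes and 128 were other named genes. The split by direction depended on scaling. With scaling by library size only, 5033 genes were called and 25.8% of them were lower, against 54.9% here, and the median of all genes moved from 0.02 to 0.22 on the log2 scale, so each list is best read against the median of all genes. Leaving out Lmx1b-/- 1 or Lmx1b-/- 3 lowered the calls to 3602 and 3500, leaving out Lmx1b-/- 2 to 4187, leaving out Lmx1b+/- 1 or Lmx1b+/- 3 to 4641 and 3755, and leaving out Lmx1b+/- 2 raised them to 6054. Leaving out WT 3, which enters the filter, the scaling and the estimate of spread, gave 5002 calls, 1811 higher and 3191 lower.

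The WT libraries showed on which side the difference lay. Of the 5544 called genes, 5090 (91.8%) differed between Lmx1b+/- and WT in the matching direction with no call between Lmx1b-/- and WT, and 3 differed between Lmx1b-/- and WT alone. These 3 were Lmx1b, Tph2 and Slc6a4. No gene departed in both genotypes, and 451 called genes met none of these rules. The WT mean was nearer to the null than to the heterozygous mean for 97.2% of the called genes, against 78.6% of all tested genes. On a scale where the heterozygous mean is 0 and the null mean is 1, WT had a median position of 1.17 (quartiles 0.984 and 1.36) over the called genes. For most genes called between null and heterozygote, the null libraries thus lay nearer to WT and the heterozygous libraries lay apart. The WT mean lay beyond the null mean for 4060 of the 5544 called genes, so the null often stood between WT and the heterozygote. Over all 21729 tested genes the WT mean lay beyond the null mean for 12970.

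**Figure D1:**
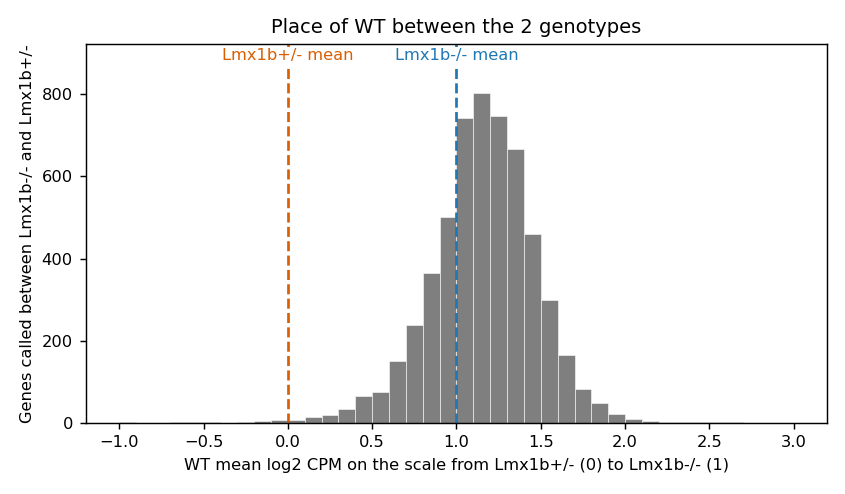
Number of called genes (vertical axis) by the place of the WT mean log2 CPM between the Lmx1b+/- mean at 0 and the Lmx1b-/- mean at 1 (horizontal axis, in bins of 0.1). The bulk of the 5544 genes sits around and beyond 1, with a median of 1.17, and few genes sit near 0.

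The 3 comparisons share libraries, and their counts stand side by side only. Lmx1b-/- against WT gave 4 called genes (0.0184%), all lower in the null: Tph2, Slc6a4, Lmx1b and Calb1, which encodes the calcium-binding protein calbindin. At an unadjusted p under 0.05 that comparison gave 1757 genes (8.09%), and DESeq2 gave 34 at its adjusted threshold. Lmx1b+/- against WT gave 7977 genes (36.7%), 4225 higher and 3752 lower. Calb1 did not pass between null and heterozygote: it stood at 18.0, 21.4 and 24.1 CPM in Lmx1b-/-, at 27.4, 23.1 and 22.5 CPM in Lmx1b+/- and at 39.2, 38.3 and 37.2 CPM in WT, so both mutant genotypes lay below WT.

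Genes of serotonergic neurons were an exception to this pattern, since WT lay nearer to the heterozygote for 5 of the 7 called. Of 20 listed genes, all of which were tested, 5 were lower and 2 higher in Lmx1b-/- (35% called, against 25.5% of all genes). The median log2 fold change was -0.24 against 0.02 for all genes. Tph2, the rate-limiting enzyme of neuronal serotonin synthesis, stood at 7.67, 8.90 and 17.4 CPM in Lmx1b+/-, at 0.420, 0.446 and 0.265 CPM in Lmx1b-/- and at 11.6, 8.90 and 9.85 CPM in WT. It was 30.2-fold lower in the null than in the heterozygote (log2FC -4.92, SE 0.35, adjusted p = 2.09e-05). Slc6a4, the serotonin transporter, stood at 13.7, 17.6 and 25.7 CPM in Lmx1b+/-, at 0.484, 0.772 and 0.663 CPM in Lmx1b-/- and at 24.2, 21.9 and 24.2 CPM in WT. It was 29.4-fold lower (log2FC -4.88, SE 0.25, adjusted p = 1.23e-06) and had the smallest p of all genes. In both genes every null library lay below every other library, while the heterozygous and WT ranges overlapped. The null levels were above the level that a count of 0 allows, so a low level of both RNAs remained detectable. In bulk tissue, fewer serotonergic neurons and less RNA per neuron cannot be told apart.

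The promoters of Tph2, Slc6a4 and Fev are shown because these genes had the largest differences of the serotonergic list and a homeodomain factor binds AT-rich letters. Each line gives the 250 bases before the annotated start, from RefSeq on the GRCm38.p6 build, 5′ to 3′ on the strand of the gene, with any TAATTA in capitals.
Tph2 (chr10:115185023-115185272, minus strand): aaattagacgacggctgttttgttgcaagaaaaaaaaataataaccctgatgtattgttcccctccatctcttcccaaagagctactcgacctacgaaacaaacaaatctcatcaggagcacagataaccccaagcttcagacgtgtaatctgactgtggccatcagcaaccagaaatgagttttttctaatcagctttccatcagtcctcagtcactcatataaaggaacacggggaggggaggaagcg
Slc6a4 (chr11:76998347-76998596, plus strand): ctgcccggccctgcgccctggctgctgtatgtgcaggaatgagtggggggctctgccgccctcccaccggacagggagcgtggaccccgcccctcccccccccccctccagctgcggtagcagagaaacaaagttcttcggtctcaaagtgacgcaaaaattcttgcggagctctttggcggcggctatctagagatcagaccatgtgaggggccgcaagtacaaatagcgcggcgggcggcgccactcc
Fev (chr1:74885409-74885658, minus strand): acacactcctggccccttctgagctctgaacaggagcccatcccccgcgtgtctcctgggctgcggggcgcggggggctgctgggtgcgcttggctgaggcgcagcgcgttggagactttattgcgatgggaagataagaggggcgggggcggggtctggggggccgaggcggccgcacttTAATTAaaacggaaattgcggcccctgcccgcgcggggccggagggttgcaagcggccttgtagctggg
TAATTA was searched because it is the core of homeodomain motifs, and it reads the same on both strands. It stood once in the Fev window, 69 bases before the start, and not in the windows of Tph2, Slc6a4 or Lmx1b. Over all tested genes with a promoter entry it was found in 444 of 12845 windows (3.46%), over called genes it was found in 2.46% of those higher and 3.30% of those lower, and in the serotonergic list in 1 of 17. A match describes these letters in this window and nothing about binding.

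Further serotonergic genes were lower at smaller sizes. Fev, the transcription factor also called Pet1 that marks serotonergic neurons, stood at 1.38, 2.19 and 3.36 CPM in Lmx1b+/-, at 0.420, 0.505 and 0.477 CPM in Lmx1b-/- and at 2.71, 1.59 and 2.70 CPM in WT (null against heterozygote: log2FC -2.30, SE 0.35, adjusted p = 0.00051). All null libraries lay below all others, although the null did not pass against WT (adjusted p = 0.0758). Gch1 makes the tetrahydrobiopterin that tryptophan hydroxylase needs, and Gchfr encodes its feedback regulator. Gch1 stood at 5.36, 5.13 and 6.09 CPM in Lmx1b+/-, at 2.87, 2.44 and 2.62 CPM in Lmx1b-/- and at 6.89, 5.64 and 4.37 CPM in WT (log2FC -1.06, SE 0.19, adjusted p = 0.00137). Gchfr stood at 0.832, 1.10 and 2.37 CPM in Lmx1b+/-, at 0.258, 0.267 and 0.451 CPM in Lmx1b-/- and at 1.05, 0.485 and 1.22 CPM in WT (log2FC -2.12, SE 0.47, adjusted p = 0.00541). In both genes the null libraries were again the lowest 3 of the 9.

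The enzyme and the transporter that serotonergic neurons share with other aminergic neurons moved less. The following were named after their values were seen, to complete the pathway. Ddc, which makes serotonin and dopamine from their precursors, stood at 5.36, 5.90 and 6.69 CPM in Lmx1b+/- and at 3.52, 3.77 and 3.23 CPM in Lmx1b-/- (log2FC -0.77, SE 0.27, adjusted p = 0.0526). Slc18a2, the vesicular monoamine transporter, stood at 16.4, 19.1 and 21.7 CPM in Lmx1b+/- and at 14.5, 14.3 and 14.0 CPM in Lmx1b-/- (log2FC -0.42, SE 0.16, adjusted p = 0.0668). The 2 groups did not overlap in either gene, which also held for 42.4% of all tested genes, and neither gene passed the threshold. Genes that act upstream of serotonergic identity or outside it were not among those lower: Nkx2-2, a ventral progenitor factor, was called higher (log2FC 0.69, adjusted p = 0.0105), and so was the receptor gene Htr1b (0.54, adjusted p = 0.0038), both with WT at the null level. Gata2, Gata3, Foxa2 and Insm1, factors of the same lineage, had log2 fold changes between -0.21 and 0.69 with adjusted p of 0.256 or more.

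**Figure D2:**
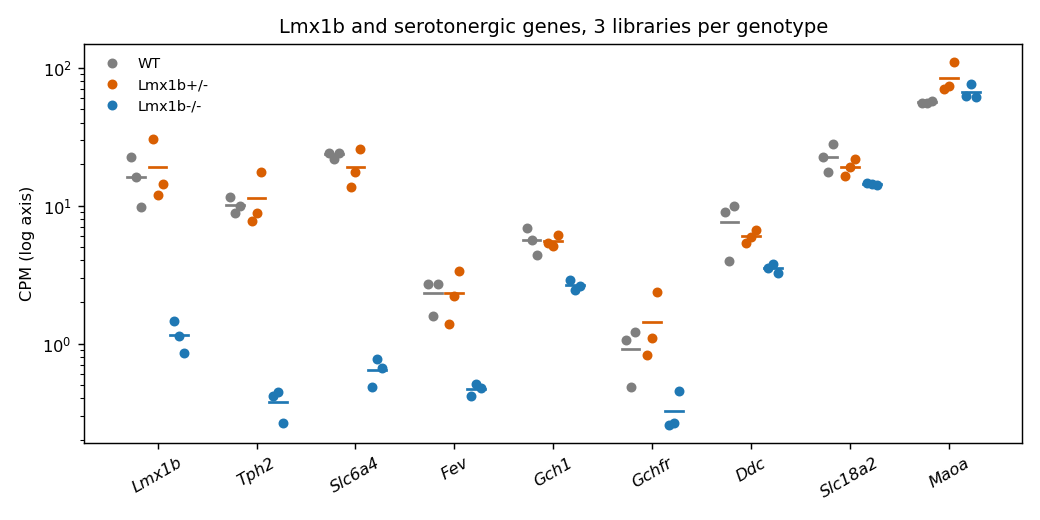
CPM on a log axis for Lmx1b and 8 serotonergic genes, with a point for each of the 3 libraries of WT (grey), Lmx1b+/- (orange) and Lmx1b-/- (blue) and a line at their mean. For Lmx1b, Tph2, Slc6a4, Fev, Gch1 and Gchfr the 3 blue points lie below all others, while for Maoa, which breaks serotonin down, the groups overlap.

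Between null and heterozygote, other aminergic genes gave no comparable difference. Of 10 tested noradrenergic genes, 1 was called (10%, against 25.5% of all genes). This was Ret, a receptor of glial-derived neurotrophic factors, which was higher (log2FC 0.62, adjusted p = 0.00579). The noradrenaline-making enzyme Dbh and the transporter Slc6a2 had log2 fold changes of -0.18 (SE 0.36) and -0.26 (SE 0.56), so differences of either sign were within their error. Of 22 tested midbrain, isthmus and dopaminergic genes, 2 were called (9.09%, against 25.5% of all genes), both lower. These were En1 and En2, homeobox factors of the midbrain and anterior hindbrain. En1 stood at 10.1, 12.3 and 5.40 CPM in Lmx1b+/-, at 3.97, 4.31 and 4.003 CPM in Lmx1b-/- and at 21.9, 6.72 and 20.2 CPM in WT (log2FC -1.17, SE 0.37, adjusted p = 0.0352). En2 stood at 18.6, 17.6 and 1.86 CPM in Lmx1b+/- and at 2.49, 3.33 and 4.08 CPM in Lmx1b-/- (log2FC -1.93, SE 0.62, adjusted p = 0.0366). In WT it stood at 39.9, 12.1 and 31.6 CPM, above every null value. The null and heterozygous values overlapped in En2. Both calls between null and heterozygote were lost without any 1 of Lmx1b+/- 1, Lmx1b+/- 2 or the 3 null libraries. Between null and WT, edgeR called 0 genes of either list at the adjusted threshold, and DESeq2 called 1 noradrenergic and 2 midbrain genes. An unadjusted p under 0.05 by edgeR was found for 3 of 10 and 8 of 22, against 8.09% of all genes. Th, a member of both lists, stood at 2.71, 3.23 and 2.37 CPM in Lmx1b+/- and at 1.52, 2.35 and 1.405 CPM in Lmx1b-/-. WT stood at 7.32, 2.42 and 6.35 CPM, and edgeR did not call Th between null and heterozygote (adjusted p = 0.197). Summed over the list, midbrain and isthmus genes came to 108 to 193 CPM in Lmx1b+/-, 135 to 165 CPM in Lmx1b-/- and 178 to 311 CPM in WT. Hox genes, which mark the hindbrain and cord, came to 914 CPM in Lmx1b+/- 1 against 281 and 480 CPM in the other heterozygous libraries and 262 to 369 CPM in the null. The summed levels of these region genes thus varied within the heterozygous group. Whether the libraries held different amounts of each region, and what part that had in these results, was not tested.

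Of 32 tested factors and other genes of dorsal hindbrain sensory neurons, 10 were lower and 2 higher in the null than in the heterozygote (37.5% called, against 25.5% of all genes), with a median log2 fold change of -0.40. Between null and WT, 0 of them were called by edgeR at the adjusted threshold, 9 at an unadjusted p under 0.05 and 1 by DESeq2. Prrxl1, also called Drgx, a homeobox factor of sensory relay neurons, stood at 50.9, 18.3 and 11.9 CPM in Lmx1b+/-, at 3.1, 4.22 and 3.74 CPM in Lmx1b-/- and at 12.1, 8.73 and 7.53 CPM in WT (log2FC -2.87, SE 0.43, adjusted p = 0.000426). Mafa, a bZIP factor, stood at 51.1, 15.9 and 14.2 CPM in Lmx1b+/-, at 7.78, 7.04 and 6.999 CPM in Lmx1b-/- and at 19.5, 13.5 and 11.6 CPM in WT (log2FC -1.89, SE 0.40, adjusted p = 0.00375). Tlx3, which selects the glutamatergic fate in dorsal neurons, stood at 9.63, 6.48 and 3.39 CPM in Lmx1b+/-, at 1.29, 2.85 and 2.89 CPM in Lmx1b-/- and at 6.19, 5.75 and 4.19 CPM in WT (log2FC -1.46, SE 0.36, adjusted p = 0.00932). In these 3 genes the null libraries were the lowest of all 9, and Lmx1b+/- 1 was the highest. Without Lmx1b+/- 1 the log2 fold changes were -2.04 for Prrxl1, -1.06 for Mafa and -1.07 for Tlx3, and the calls remained.

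Ebf2, a factor of differentiating neurons, was also lowest in the null, with 33.3, 23.6 and 16.8 CPM in Lmx1b+/-, 10.9, 12.8 and 15.7 CPM in Lmx1b-/- and 28.3, 22.1 and 30.1 CPM in WT (log2FC -0.90, SE 0.22, adjusted p = 0.00855). Lbx1, a homeobox factor of dorsal association neurons, was called at -0.95 (SE 0.33, adjusted p = 0.0483), but without Lmx1b+/- 1 the value was -0.38 (adjusted p = 0.267), and the call was also lost without any 1 null library. The neuropeptide genes Grp and Tac1, expressed in sensory relay neurons, were also lower in the null (-1.32 and -1.03), yet there WT lay at the null level: Tac1 stood at 57.4, 35.3 and 33.6 CPM in Lmx1b+/-, at 18.6, 20.8 and 22.3 CPM in Lmx1b-/- and at 20.5, 16.0 and 23.4 CPM in WT. The list thus held genes of both kinds, 6 that departed in the heterozygote alone and 6 that met neither rule. Summed over the list, Lmx1b+/- 1 stood highest at 1218 CPM, the other heterozygous libraries at 598 and 774 CPM and the null at 517 to 669 CPM. Without Lmx1b-/- 1, 7 members were called.

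Factors of the breathing circuit were called about as often as all genes, 2 higher and 5 lower of 28 tested (25% against 25.5%). Shox2, a homeobox factor of excitatory rhythm neurons, stood at 40.7, 35.3 and 56.9 CPM in Lmx1b+/-, at 26.4, 26.5 and 30.1 CPM in Lmx1b-/- and at 41.1, 32.9 and 39.0 CPM in WT (log2FC -0.68, SE 0.16, adjusted p = 0.00633). Sst, the somatostatin gene that marks part of the preBötzinger neurons, stood at 101, 64.5 and 67.8 CPM in Lmx1b+/-, at 48.0, 48.3 and 52.0 CPM in Lmx1b-/- and at 79.4, 52.5 and 61.0 CPM in WT (log2FC -0.66, SE 0.17, adjusted p = 0.0139). Both genes had the null libraries below all others. Dbx1, from whose lineage preBötzinger neurons arise, was near the threshold (log2FC -1.5, SE 0.52, adjusted p = 0.0486), and its heterozygous values of 2.03, 1.52 and 0.507 CPM reached close to the null values of 0.614, 0.356 and 0.451 CPM. Without any 1 null library only 3 members of this list were called.

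Beyond these lists, 454 genes (2.09% of all tested) had all 3 null values outside all 6 heterozygous and WT values, of which 223 were among the called genes. A set chosen after the values were seen, the called genes of this kind with a proper name and with WT nearer to the heterozygote, held 47 genes higher and 35 lower in the null and is given as a description without a test. The lower ones included Lmx1b, Slc6a4, Tph2, Prrxl1, Fev, Gch1, Gchfr, Mafa, Shox2, Tlx3 and Sst. The higher ones included Bcas1, a gene of newly formed oligodendrocytes (log2FC 0.89, adjusted p = 0.00039), Htr3a, the ionotropic serotonin receptor (0.84, adjusted p = 0.0342), and the metallothionein genes Mt1 and Mt2 (0.47 and 0.51).

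Of 23 tested forebrain genes 6 were called, all higher in the null (26.1%), with a median of 0.57. Of all tested genes 25.5% were called in either direction and 11.5% were called higher. WT lay nearer to the heterozygote for all 6. Between null and WT, 0 of the 23 were called by edgeR at the adjusted threshold and 6 by DESeq2. An unadjusted p under 0.05 by edgeR was found for 10, against 8.09% of all genes. Summed over the list, the genotypes overlapped, at 279.6, 181 and 347 CPM in Lmx1b-/- 1 to 3, 179 to 314 CPM in Lmx1b+/- and 212 to 363 CPM in WT. Tbr1, a factor of cortical projection neurons, stood at 5.65, 1.37 and 6.23 CPM in Lmx1b-/- and at 0.289, 0.548 and 0.960 CPM in Lmx1b+/-, with WT at 0.985, 1.32 and 1.149 CPM (log2FC 2.85, SE 0.51, adjusted p = 0.00138). Lhx6, a factor of cortical interneurons, stood at 5.07, 0.832 and 3.76 CPM in Lmx1b-/- and at 0.470, 0.613 and 0.720 CPM in Lmx1b+/-, with WT at 0.739, 0.519 and 0.383 CPM (log2FC 2.40, SE 0.52, adjusted p = 0.00448). Lmx1b-/- 2 lay close to the heterozygous libraries in both genes, and the other null libraries lay several-fold above. Dlx1 and Dlx2, also called, had their lowest null value in Lmx1b-/- 2 as well. Without Lmx1b-/- 1 the list had 5 calls, without Lmx1b-/- 2 it had 10, and without Lmx1b-/- 3 it had 4. The part that tissue from outside the brainstem had in these values was not tested.

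The remaining differences, in which the heterozygote stood apart, fell into gene groups of opposite direction. Cytosolic ribosomal protein genes, the structural proteins of the ribosome, were lower in Lmx1b-/- almost without exception. Of the 81 genes 79 were called lower (97.5%, against 14.0% of all genes), with a median log2 fold change of -1.06. Fau stood at 164, 140 and 161 CPM in Lmx1b+/-, at 69.4, 71.5 and 62.6 CPM in Lmx1b-/- and at 63.2, 64.4 and 66.2 CPM in WT (log2FC -1.19, SE 0.10, adjusted p = 3.52e-05). Rpl37 stood at 90.8, 83.3 and 110 CPM in Lmx1b+/-, at 39.8, 41.5 and 39.6 CPM in Lmx1b-/- and at 34.9, 36.8 and 35.4 CPM in WT (log2FC -1.23, SE 0.10, adjusted p = 3.52e-05). In both genes null and WT lay close together, and all heterozygous values lay above. Of the 15 named genes lower with the smallest p, 13 were ribosomal protein genes or copies of them, among them Fau, Rpl37, Rps25, Rps27a, Rps27rt, Rps7, Rps14, Rpl32, Rpl19, Rps3a2, Rpl18 and Rps21. Summed over the list, the level was 10570 to 13770 CPM in Lmx1b+/-, 5899 to 6246 CPM in Lmx1b-/- and 5163 to 5516 CPM in WT. The summed null level thus also lay above WT. Between null and WT the median log2 fold change was 0.18, and edgeR called 0 of the 81. An unadjusted p under 0.05 was found there for 27, against 8.09% of all genes. Of 186 tested pseudogenes of these genes, 176 were called lower (94.6%) with a median of -1.08. Reads of a gene and its near-identical copies may have been split between them, so single members are uncertain.

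Many ribosomal protein mRNAs start with a C followed by a run of pyrimidines, the terminal oligopyrimidine motif through which their translation is controlled. The start sites of 4 members are shown for that reason, as 30 bases from 10 before the annotated start to 20 from it on, from RefSeq on GRCm38.p6, with the run of pyrimidines from the start in capitals.
Fau (chr19:6057937-6057966, plus strand): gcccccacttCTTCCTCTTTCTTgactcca
Rpl15 (chr14:18270967-18270996, minus strand): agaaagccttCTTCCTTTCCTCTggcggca
Rpl35 (chr2:39005112-39005141, minus strand): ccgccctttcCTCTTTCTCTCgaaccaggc
Rps10 (chr17:27635225-27635254, minus strand): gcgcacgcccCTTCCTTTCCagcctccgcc
A start with C and at least 4 pyrimidines in a row was annotated for 14 of 60 ribosomal protein genes (23.3%), for 3 of 51 nuclear respiratory chain genes (5.88%) and for 394 of 12845 tested genes (3.07%). This count was chosen after the values were seen, depends on where the annotation places each start, and has no test. Rps10, one of the genes shown, differed from the rest of its list in that WT lay nearer to the heterozygote (log2FC -0.95, adjusted p = 0.000839).

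Genes of the mitochondrial respiratory chain, which makes most of the ATP of a neuron, were lower in the null in both genomes. Of 64 tested nuclear-encoded subunits 56 were called lower (87.5%, against 14.0% of all genes) and none higher, with a median of -0.74. Between null and WT the median was 0.21, and edgeR called 0 of the 64. An unadjusted p under 0.05 was found there for 25, against 8.09% of all genes. Ndufa4 stood at 128, 129 and 164 CPM in Lmx1b+/-, at 66.2, 69.6 and 65.3 CPM in Lmx1b-/- and at 56.9, 55.4 and 51.9 CPM in WT (log2FC -1.07, SE 0.11, adjusted p = 4.13e-05). Atp5e, a subunit of ATP synthase, stood at 73.1, 62.6 and 73.6 CPM in Lmx1b+/-, at 35.7, 36.2 and 34.6 CPM in Lmx1b-/- and at 31.7, 31.8 and 34.95 CPM in WT (log2FC -0.98, SE 0.09, adjusted p = 4.03e-05). Heterozygous values were the highest 3 of 9 in both genes. Of 15 mitochondrially encoded genes 11 were called lower (73.3%, against 14.0% of all genes), with a median of -1.0. Of these, mt-Nd3 stood at 547, 464 and 716 CPM in Lmx1b+/- against 216, 240 and 179 CPM in Lmx1b-/- (log2FC -1.44, SE 0.16, adjusted p = 6.42e-05). With limma on log2(RPKM + 1), 2 of the 15 were called. The 6 interactome genes that the study's text names were all called lower in the null than in the heterozygote (100%, against 14.0% of all genes). Their log2 fold changes lay between -0.70 for Srp14 and -1.11 for Rpl34. Against WT all 6 stood higher in the null, by 0.31 for Eif2s2 to 0.48 for Rpl21. There all 6 had an unadjusted p under 0.05 by edgeR, against 8.09% of all genes, and 0 passed the adjusted threshold. The study drew them from these libraries, so they are no independent evidence of either direction.

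Erythroid genes moved in the same direction and most widely. Of 11 tested genes 8 were called lower (72.7%, against 14.0% of all genes), with a median of -1.73. Hbb-bs, an adult beta globin, stood at 2562, 1393 and 3542 CPM in Lmx1b+/-, at 431, 519 and 882 CPM in Lmx1b-/- and at 195, 355 and 424 CPM in WT (log2FC -2.03, SE 0.36, adjusted p = 0.00128). Alas2, which starts haem synthesis in red cells, stood at 57.0, 33.4 and 55.5 CPM in Lmx1b+/- and at 14.1, 15.8 and 27.0 CPM in Lmx1b-/- (log2FC -1.36, SE 0.29, adjusted p = 0.00423). The null and heterozygous values did not overlap in these 2 genes, as in 42.4% of all tested genes. The summed level was 3578 to 7545 CPM in Lmx1b+/-, 1086 to 2412 CPM in Lmx1b-/- and 548 to 1288 CPM in WT, so blood RNA moved with the ribosomal protein and mitochondrial shares across the genotypes, and its part in the other differences was not tested. Globin genes have near-identical copies, and their single values are uncertain.

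**Figure D3:**
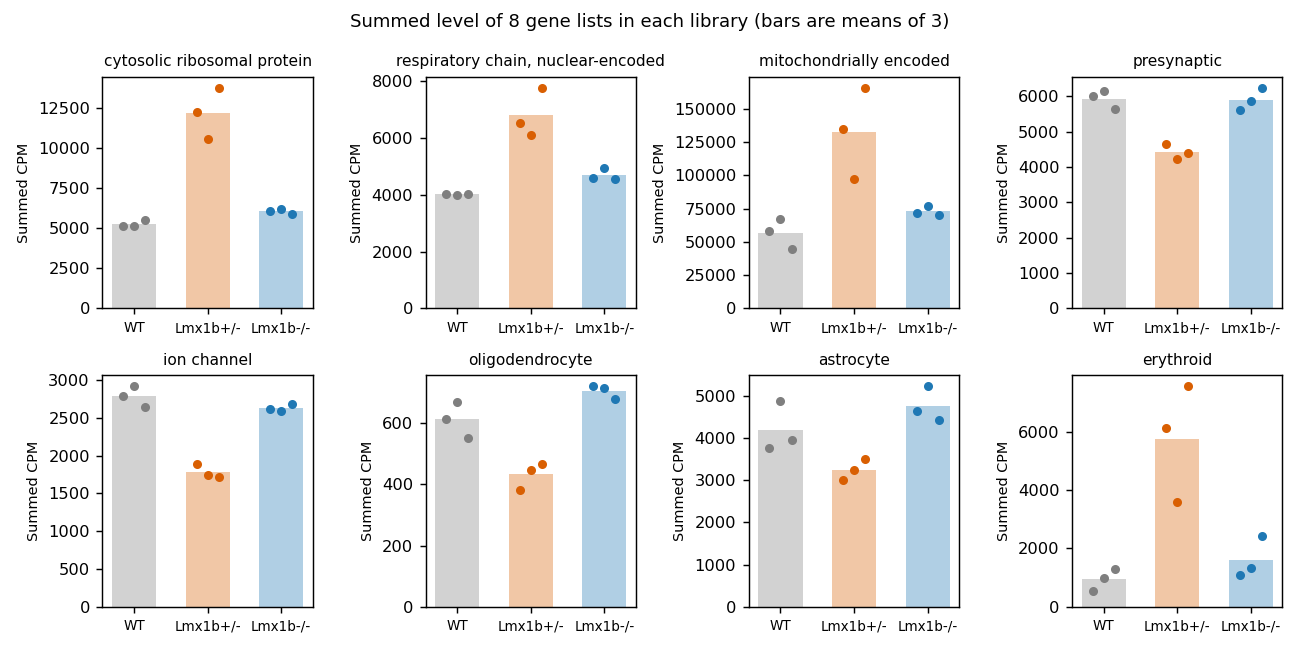
Summed CPM of 8 gene lists (vertical axes, each from 0) with a point per library and a bar at the mean of 3 for WT, Lmx1b+/- and Lmx1b-/-. In the ribosomal, respiratory chain, mitochondrial and erythroid panels the heterozygous points lie above the rest, and in the presynaptic, ion channel, oligodendrocyte and astrocyte panels they lie below.

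Genes of synaptic transmission were higher in Lmx1b-/-. Of 32 presynaptic genes 21 were called higher and 1 lower (68.8% called, median 0.51). Of 48 postsynaptic and receptor genes 24 were called, all higher (50%, median 0.37). Of 39 ion channel genes 28 were called, all higher (71.8%, median 0.59). Over all tested genes 11.5% were called higher, and 30.3% in the longest quintile by gene length (from 6490 bases). Median lengths were 7871 bases in the presynaptic, 7128 in the postsynaptic and receptor and 9862 in the ion channel list. Syn1, the synapsin that tethers synaptic vesicles, stood at 115, 128 and 104 CPM in Lmx1b+/-, at 199, 196 and 252 CPM in Lmx1b-/- and at 240, 212 and 223 CPM in WT (log2FC 0.90, SE 0.12, adjusted p = 0.00021). Grin1, the obligate subunit of NMDA receptors, stood at 48.6, 43.8 and 34.8 CPM in Lmx1b+/-, at 77.7, 70.5 and 84.8 CPM in Lmx1b-/- and at 81.4, 92.7 and 78.2 CPM in WT (log2FC 0.87, SE 0.13, adjusted p = 0.000324). Kcna2, a delayed rectifier potassium channel of axons, stood at 33.8, 32.5 and 39.7 CPM in Lmx1b+/-, at 63.5, 69.9 and 66.1 CPM in Lmx1b-/- and at 70.6, 79.3 and 63.3 CPM in WT (log2FC 0.91, SE 0.11, adjusted p = 9.91e-05). In all 3 genes the heterozygous libraries were the lowest, with null and WT overlapping. Syt2, a synaptotagmin of fast synapses, had the largest difference among the called presynaptic genes named by smallest p (1.33, SE 0.18), and Scn8a, Cacna1a and Kcnq3 were each higher by 0.83 to 0.92. Of 54 axon guidance genes, of median length 8540 bases, 21 were higher and 1 lower (40.7% called, median 0.35). The higher ones included the neurotrophin receptors Ntrk2 and Ntrk3 (0.64 and 0.62) and Plxna4, a semaphorin receptor (0.78). Without Lmx1b+/- 3, 14 axon guidance genes were called.

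Inhibitory transmitter genes followed the same direction, with 8 of 20 called higher and 1 lower (45% called, against 25.5% of all genes). The GABA transporter Slc6a11 was higher by 0.92, the glycine transporter Slc6a9 by 0.72, the vesicular transporter Slc32a1 by 0.70, and the GABA-making enzymes Gad2 and Gad1 by 0.69 and 0.45. Tal2, a factor of midbrain GABA neurons, was the exception, at 6.30, 2.39 and 0.540 CPM in Lmx1b+/- against 0.388, 0.356 and 0.504 CPM in Lmx1b-/- (log2FC -2.85, SE 0.65, adjusted p = 0.00616). Its heterozygous values spread more than its null values, with Lmx1b+/- 3 next to the null. Of 7 glutamate transporter genes 4 were called, all higher (57.1%, against 11.5% of all genes called higher), among them the glial Slc1a2 (0.72) and the vesicular Slc17a7 (1.85).

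Both macroglial lineages were higher in the null. Of 19 oligodendrocyte genes 16 were called, all higher (84.2%, against 11.5% of all genes called higher), with a median of 0.72. Mobp, a myelin protein, stood at 0.145, 0.355 and 0.120 CPM in Lmx1b+/-, at 2.55, 2.32 and 1.75 CPM in Lmx1b-/- and at 1.79, 2.35 and 1.53 CPM in WT (log2FC 3.39, SE 0.37, adjusted p = 6.09e-05). Gpr17, a receptor of cells about to myelinate, stood at 31.5, 33.1 and 35.5 CPM in Lmx1b+/-, at 85.7, 83.2 and 80.9 CPM in Lmx1b-/- and at 60.5, 78.4 and 51.1 CPM in WT (log2FC 1.32, SE 0.13, adjusted p = 4.13e-05). Mbp, Sox10 and Myrf were higher by 0.93, 0.91 and 1.5. In Gpr17 the null libraries lay above WT as well, and the whole list summed to 678 to 719 CPM in Lmx1b-/- against 552 to 670 CPM in WT and 382 to 468 CPM in Lmx1b+/-, although no member was called between null and WT. Without Lmx1b+/- 1, 10 members were called.

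Of 23 astrocyte genes 12 were called higher and 1 lower (56.5% called, against 25.5% of all genes), with a median of 0.65. Agt, angiotensinogen, which astrocytes of the brainstem make, had the smallest p of all genes that were higher: it stood at 3.76, 5.94 and 3.54 CPM in Lmx1b+/-, at 30.8, 30.1 and 29 CPM in Lmx1b-/- and at 26.6, 29.99 and 24.1 CPM in WT (log2FC 2.76, SE 0.18, adjusted p = 7.31e-06). Gfap, the astrocyte filament, stood at 7.31, 17.2 and 7.92 CPM in Lmx1b+/-, at 39.3, 59.3 and 36.3 CPM in Lmx1b-/- and at 29.9, 27.9 and 24.1 CPM in WT (log2FC 2.05, SE 0.28, adjusted p = 0.000236). Apoe, the main lipid carrier of the brain, was higher by 1.09 (SE 0.13, adjusted p = 0.000105). The heterozygous libraries were the lowest 3 of 9 for Agt and Gfap, and the null libraries the highest 3 for Gfap. Hopx, a gene of radial glia, went the other way (-0.94, adjusted p = 0.00246), at 41.2, 30.4 and 35.01 CPM in Lmx1b+/- against 16.5, 21.7 and 17.3 CPM in Lmx1b-/-.

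Genes of proliferation and of immature cells were not called more often than all genes. Of 42 cell cycle genes 9 were lower and 1 higher, 23.8% against 25.5% of all tested genes, with a median of -0.28. The cell cycle calls thus lay mostly on the lower side, whereas 14.0% of all tested genes were called lower and 11.5% higher. Of 29 neural progenitor and Notch genes 3 were lower and 1 higher (13.8%), with a median of 0.10. Pcna, the clamp of DNA replication, stood at 43.8, 54.1 and 57.8 CPM in Lmx1b+/-, at 31.1, 33.2 and 30.8 CPM in Lmx1b-/- and at 25.8, 30.9 and 29.6 CPM in WT (log2FC -0.71, SE 0.11, adjusted p = 0.000714). Cdkn1c, an inhibitor of the cycle, was lower as well (-0.78, adjusted p = 0.000474), so the called members do not all drive division. Vim, the filament of progenitors, stood at 241, 286 and 245 CPM in Lmx1b+/-, at 192, 190 and 163 CPM in Lmx1b-/- and at 225, 227 and 214 CPM in WT, with all null libraries below both other genotypes (log2FC -0.50, SE 0.11, adjusted p = 0.00399). With scaling by library size only 3 cell cycle genes were called, and leaving out 1 library gave between 3 (without Lmx1b-/- 3) and 18 (without Lmx1b+/- 1).

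**Figure D4:**
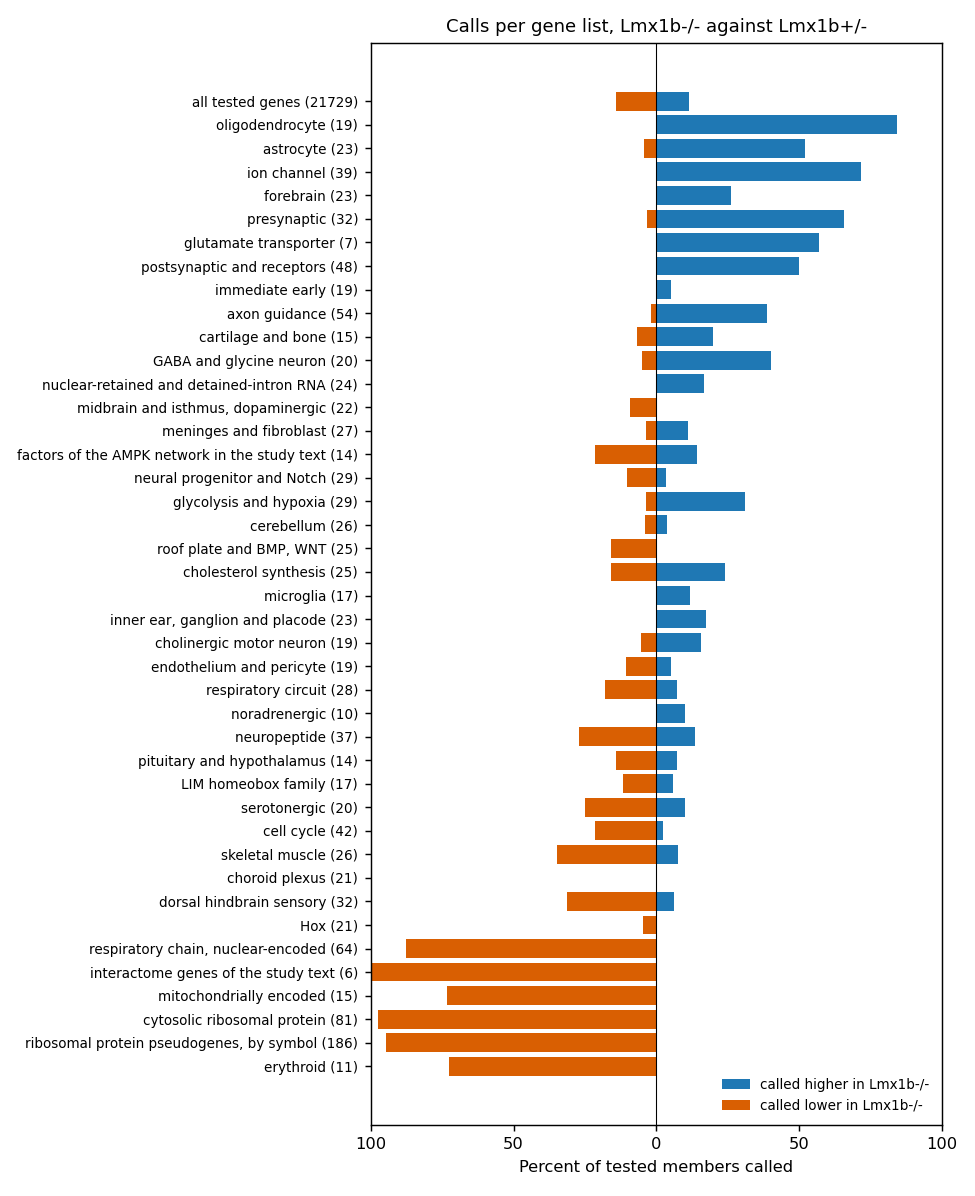
Percent of the tested members of 41 gene lists, and of all tested genes at the top, that were called higher (blue, to the right) or lower (orange, to the left) in Lmx1b-/- than in Lmx1b+/-, with the number tested in brackets and lists ordered by median log2 fold change. Ribosomal, mitochondrial and erythroid lists extend left to between 72.7% and 97.5%, and the 6 interactome genes of the study's text to 100%. Oligodendrocyte, ion channel and presynaptic lists extend furthest right.

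The direction of a difference went with the length of the gene. In the shortest quintile of the tested genes (median 767 bases) 35.4% were called lower and 1.06% higher, with a median log2 fold change of -0.45, and in the longest quintile (median 8786 bases) 3.38% were called lower and 30.3% higher, with a median of 0.24. The median length was 1770 bases in the ribosomal protein list and 9862 bases in the ion channel list. The same medians were 0.11 and -0.03 for Lmx1b-/- against WT, and 0.52 and -0.28 for Lmx1b+/- against WT, so the length gradient stood where the heterozygote was compared. With the trend by length removed from each library, 77 of 81 ribosomal protein genes and 42 of 64 respiratory chain genes were called, as were 15 of 19 oligodendrocyte, 11 of 23 astrocyte, 16 of 32 presynaptic and 18 of 39 ion channel genes, whereas axon guidance fell to 11 of 54 with a median of 0.09. Neither RNA quality nor the embryonic day is given for these libraries, and their part in the gradient was not tested.

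**Figure D5:**
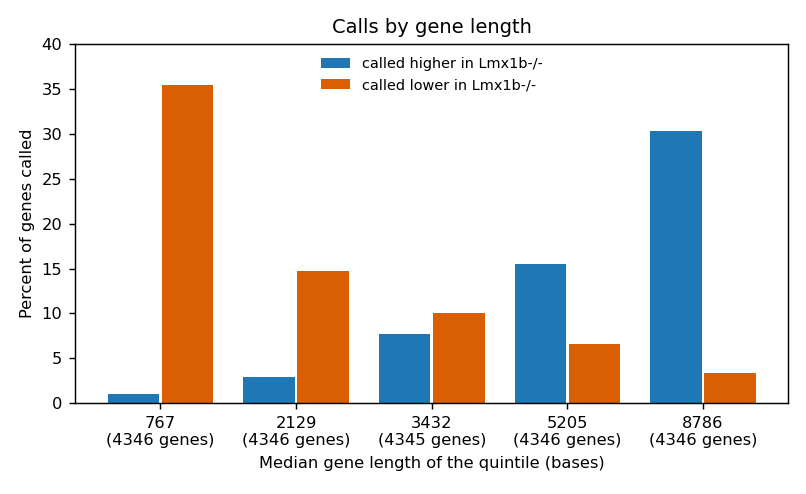
Percent of genes called higher (blue) or lower (orange) in Lmx1b-/- than in Lmx1b+/- (vertical axis) in quintiles of the 21729 tested genes by length (horizontal axis, median length in bases). Calls lower fall from 35.4% in the shortest to 3.38% in the longest quintile, and calls higher go from 1.06% to 30.3%.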

How the data were processed

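Brainstem RNA of 9 prenatal libraries (3 WT, 3 Lmx1b+/- and 3 Lmx1b-/-) was analysed. Per the study's text, RNA was extracted with TRIzol and prepared with a directional library kit, and per the labels the molecule was polyA RNA. The authors deposited whole-number counts per Ensembl gene, and RPKM values made from them by dividing by gene length and library total. HISAT2 and the GRCm39 build are named in the submitters' processing notes, and the counter and the treatment of reads with several matches are not given in the sources used here. The deposited table lists 57180 identifiers, of which 51884 (90.7%) matched a symbol and 40964 had counts, and 0 columns belonged to no sample. Total counts were 28833130 to 37441679 per library.

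Counts were fitted in R 4.3.3 with edgeR 4.0.16: filterByExpr on genotype kept 21729 genes, libraries were scaled by TMM, and all 9 libraries entered 1 quasi-likelihood fit with genotype as the only term, so that they share 1 estimate of spread. The null was contrasted with the heterozygote, and a gene was called where its adjusted p (Benjamini-Hochberg, over all tested genes) was under 0.05. A called gene departed in the heterozygote where Lmx1b+/- against WT was called in the opposite direction and Lmx1b-/- against WT was not called, and in the null where Lmx1b-/- against WT was called in the same direction and Lmx1b+/- against WT was not. The 42 gene lists were described by counts and medians, without a set test. The pipeline was tested on simulated counts.

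Named genes were Lmx1b, the 15 called genes with the smallest p in each direction and the 5 with the largest change among those with a mean of at least 1 CPM, if the null and heterozygous values did not overlap and the name is no gene model, and in each list up to 6 called members by smallest p and the first 3 members. The text names those of them that it describes, and gives the others by counts, and a few genes are not reported here. The members and lists were chosen with earlier results of these data known.

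The fits were repeated with limma 3.58.1 on log2(RPKM + 1) and log2(RPKM + 0.1), with the likelihood-ratio test of edgeR, with DESeq2 1.42.0, other scalings and filters, only the 6 compared libraries, a replicate block, lowess removal (span 0.3) of the trend with gene length, and each library left out. Removal of the GC trend and a term for sex by Ddx3y were chosen after seeing the data.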

Additional observations from a re-analysis of the deposited data

How the results depend on the processing

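Between null and heterozygote, the 5544 calls went to 955 with a change of at least 2-fold, to 3663 with the length trend removed, and to 3500 to 6054 when 1 library was left out (lowest without Lmx1b-/- 3). Calls higher in the null were 242 at 2-fold, 3916 at an unadjusted p, 1353 and 1476 with the length trend and the length and GC trends removed, and 1395 to 2561 with 1 library left out. Calls lower were 1390 and 1367 with limma on RPKM with a pseudocount of 1 and 0.1, 1296 with scaling by library size only, 713 at 2-fold, and 2095 to 3638 with 1 library left out. Genes departing in the heterozygote alone were 772 at 2-fold, 3288 and 3313 with the length and with the length and GC trends removed, and 3307 to 5658 with 1 library left out. Genes departing in the null alone were 12 with DESeq2, 14 with the likelihood-ratio test, 13 with library size only, 83 without a filter on low counts, 145 at an unadjusted p, and 3 to 11 with 1 library left out. The 2-fold count is lower by construction, and the cause of the other moves was not tested. A term for sex gave 5890 calls. The replicate numbers do not pair the samples: the deviations of same-numbered null and heterozygous libraries correlated at -0.18, -0.13 and -0.15, and 0 of the 3 null libraries correlated best with its own number. With the replicate block 4720 genes were called, 4361 departed in the heterozygote and 5 in the null. Depth limits genes near the level that a count of 0 allows, 0.0676 to 0.109 CPM. Of the genes named, 6 that were called in no direction changed sign under some setting. The log2 fold change with limma on RPKM at a pseudocount of 1 and of 0.1 was 0.0601 and 0.17 for Dbh, 0.0289 and 0.22 for Slc6a2 and 0.0477 and 0.0953 for Insm1. With library size only it was 0.0054 for Calb1, and with the term for sex 0.11 for Dbh and 0.24 for Slc6a2. With the length and GC trends removed Gata2 stood at -0.0812. With 1 library left out it ran from -0.53 to 0.42 for Dbh, from -0.69 to 0.89 for Slc6a2, from -0.0802 to 1.02 for Gata2, which was called without Lmx1b+/- 3, from -0.0019 to 0.55 for Gata3 and from -0.45 to 0.22 for Insm1.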

Other observations

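Neuropeptide genes went both ways between null and heterozygote, with 5 of 37 higher and 10 lower (40.5% called, against 25.5% of all genes). Of all tested genes, 11.5% were called higher and 14.0% lower. Vgf, a precursor of secreted peptides, was higher (log2 fold change, log2FC, 1.04, adjusted p = 0.000143 by edgeR's quasi-likelihood test), as was Chga, a granule protein (0.55, adjusted p = 0.00128). Cck stood at 44.9, 10.7 and 13.8 CPM in Lmx1b+/- against 4.91, 4.96 and 4.83 CPM in Lmx1b-/- and 8.79, 8.62 and 8.88 CPM in WT (log2FC -2.24, SE 0.41, adjusted p = 0.00157). The null values were nearly equal to each other and below every other library, and Lmx1b+/- 1 stood far above. Without Lmx1b+/- 1 the log2FC of Cck was -1.34 (adjusted p = 0.000184). Npy was lower as well (-1.41, adjusted p = 0.00904).

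Among energy genes outside the mitochondrion, 9 of 29 glycolysis and hypoxia genes were higher and 1 lower, in contrast to the respiratory chain. The share called was 34.5%, against 25.5% of all genes. Hk1, the first enzyme of glycolysis, and Pfkp, which commits glucose to it, were higher by 0.55 and 0.67 (adjusted p = 0.0016 and 0.00235 by edgeR's quasi-likelihood test). With the length trend removed 4 of the 29 were called. Cholesterol and fatty acid synthesis genes split, with Scd2, Scd1, Acaca and Fasn higher by 0.54, 0.65, 0.38 and 0.55 and Msmo1 and Fdft1 lower (-0.60 and -0.48).

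Msx3, a homeobox factor of the dorsal neural tube, stood at 2.68, 2.84 and 3.54 CPM in Lmx1b+/-, at 0.678, 0.891 and 0.822 CPM in Lmx1b-/- and at 1.30, 1.32 and 1.06 CPM in WT (log2FC -1.92, SE 0.23, adjusted p = 0.000105 by the same test). The 3 genotypes did not overlap. Ibsp, bone sialoprotein, stood at 2.93, 14.5 and 11.5 CPM in Lmx1b+/-, at 1.32, 0.743 and 1.46 CPM in Lmx1b-/- and at 0.246, 0.519 and 0.225 CPM in WT, while 3 other cartilage and bone genes were called higher. Of the 15 tested genes of that list, 26.7% were called, against 25.5% of all genes. Choroid plexus genes had 0 of 21 calls with edgeR at the adjusted threshold, 1 with DESeq2 and 1 at an unadjusted p under 0.05, and their summed level ranged from 252 to 2051 CPM within Lmx1b+/- and from 285 to 1656 CPM within Lmx1b-/-.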
